A study of Mus musculus with 9 samples.

Results

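The matrix proteases and their inhibitors were examined in tumor-adjacent liver (TAL) and control liver of mice: the matrix metalloproteinases (MMPs), the tissue inhibitors of metalloproteinases (TIMPs), and the ADAM, ADAMTS and ADAMTS-like families. Members were all protein-coding genes whose symbol begins with Mmp, Timp, Adam, Adamts or Adamtsl followed by a number, with at most 1 letter after it for Mmp and Adam, a rule that uses no measured value. This gave 47 of the 16755 genes in the deposited table. They were 13 MMPs, 3 TIMPs, 13 ADAMs, 13 ADAMTS and 5 ADAMTS-like genes. Polyadenylated RNA had been sequenced from 3 groups of 3 male mice, C57BL/6 by the labels and C57BL/6J by the methods of the study, all homozygous for floxed Scd2, the gene of a stearoyl-CoA desaturase that makes monounsaturated fatty acids. Scd2f/f mice and Scd2f/f mice carrying Col1a1-Cre (Scd2f/f;CC) were injected at 2 weeks of age with the liver carcinogen diethylnitrosamine (DEN), 10 mg/kg. Both then had a Western alcohol diet (WAD), a liquid diet rich in fat and cholesterol with ethanol, from 6 weeks of age, for 4 months by the sample labels and for longer by the study's methods. The remaining mice, called control liver here, were untreated Scd2f/f mice by their treatment label, although the protocol text attached to them is that of the treated mice, and the age of the controls is not given in the sources used here. The study compared Scd2f/f;CC with Scd2f/f TAL to learn what loss of Scd2 from activated hepatic stellate cells (HSC) changes in liver next to tumors.

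The limits of the groups as a model bear on every value below. Cre driven by the Col1a1 promoter acts in cells that make collagen, by the study's account HSC and portal fibroblasts, so the deletion was not directed at hepatocytes, macrophages or endothelial cells. The labels call all tissue liver, the study's results call it TAL, and its RNA sequencing methods name non-tumor liver. The deposited table gives 1 mean of normalized counts per group and no value per mouse, so no spread between mice could be computed, no test was run, and each level printed here is the authors' mean. The sequencing depth of each mouse is unknown for the same reason. The upper quartile of the means was 15.5 for control liver, 15.5 for Scd2f/f TAL and 15.4 for Scd2f/f;CC TAL. The lowest listed means were 0.04, 0.0348 and 0.0349 in that order, so a mean near these sits at the floor of the table. Scd2 itself had means of 2.46, 6.47 and 1.87 in the same order, a ratio of 0.289 between the TAL groups. Hepatocyte markers, led by Alb at 21300, 20900 and 22700, were the most abundant of the cell type markers examined in all 3 groups.

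MMPs are secreted or membrane-bound zinc proteases that are made as inactive precursors and together cut most proteins of the extracellular matrix, while TIMPs bind their active site and block them. ADAMs are membrane proteases that release growth factors, cytokines and receptors from cell surfaces, and ADAMTS enzymes are secreted and act on proteoglycans, procollagens and von Willebrand factor. In a scarred liver, HSC and portal fibroblasts are a known source of Mmp2, Timp1 and Timp2, and macrophages of Mmp12 and Mmp13.

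A few stretches of sequence are shown first, because the 4 genes behind them had the lowest ratios of Scd2f/f;CC to Scd2f/f TAL among the 47 members, and 3 of them lie in 1 gene cluster. Of the 4, Mmp13, Mmp7 and Timp1 had a mean under 1 over the 3 groups. The Scd2f/f;CC means of Mmp7 and Timp1 were near the floor of the table. Mmp13, Mmp12, Mmp27 and Mmp7 lie within 427 kb of chromosome 9 (GRCm38, chr9:7272514-7699586, all on the plus strand), with Tmem123 the next gene of the table beyond them. Promoter sequences from RefSeq on GRCm38.p6 were found for 31 of the 47 members, in 36 entries, and the 250 bases before the annotated start were searched on both strands for TGAGTCA or TGACTCA, the word bound by AP-1. Among all 32851 RefSeq promoters of that length, 4.46% held it, and among the members Mmp13, Mmp12, Mmp7 and Adam19 did. The word is in capitals in the sequences of the 3 cluster genes, which run 5′ to 3′ on the plus strand and end at the base before the start. That of Mmp13 is chr9:7272264-7272513, with the first base of the word at -35 from the start. That of Mmp12 is chr9:7347124-7347373, before the second of its starts and within an intron of the longer GENCODE gene model, with the word at -44. That of Mmp7 is chr9:7691840-7692089, within the antisense gene AV064505 but in none of its exons, with the word at -63.
Mmp13: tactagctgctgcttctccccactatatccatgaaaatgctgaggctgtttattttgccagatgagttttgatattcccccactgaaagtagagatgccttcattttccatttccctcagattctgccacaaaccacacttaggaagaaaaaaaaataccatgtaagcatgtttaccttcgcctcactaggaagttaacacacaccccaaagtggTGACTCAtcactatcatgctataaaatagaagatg
Mmp12: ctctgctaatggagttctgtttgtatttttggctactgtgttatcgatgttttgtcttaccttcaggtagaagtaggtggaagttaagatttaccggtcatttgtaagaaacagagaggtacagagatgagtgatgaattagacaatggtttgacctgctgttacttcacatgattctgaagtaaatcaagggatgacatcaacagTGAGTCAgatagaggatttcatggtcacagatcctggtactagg
Mmp7: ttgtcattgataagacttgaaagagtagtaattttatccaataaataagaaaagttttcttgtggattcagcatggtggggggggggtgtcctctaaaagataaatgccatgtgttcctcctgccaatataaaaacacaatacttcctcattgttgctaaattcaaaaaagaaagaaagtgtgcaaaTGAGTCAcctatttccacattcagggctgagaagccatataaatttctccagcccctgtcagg
The promoters of Timp1, Adam19 and Adamts13 held a word bound by TEAD, the partner of YAP1 on DNA, either CATTCCA or alternatively CATTCCT on either strand, which 7.97% of all promoters did. These were 3 of the 36 entries, close to the share of all promoters. The 250 bases before the start of Timp1 are chrX:20869916-20870165 on the plus strand, within Syn1 but in none of its exons, with the word, in capitals, at -248.
Timp1: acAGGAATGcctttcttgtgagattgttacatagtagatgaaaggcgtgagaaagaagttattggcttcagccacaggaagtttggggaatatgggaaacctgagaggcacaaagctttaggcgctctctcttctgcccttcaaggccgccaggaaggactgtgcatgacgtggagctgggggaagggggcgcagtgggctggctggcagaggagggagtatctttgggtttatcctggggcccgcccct
A further pair of words, bound by the TCF partners of CTNNB1 and searched in the same way, ATCAAAG or alternatively TTCAAAG, was found in 7.48% of all promoters and among the members only in a second entry of Mmp7, whose 250 bases lie inside the gene and are not shown. These matches describe the letters and say nothing of binding. No entry was found for Adam4, Adam9, Adam11, Adam12, Adam33, Adamts4, Adamts5, Adamts6, Adamts7, Adamts10, Adamts15, Adamtsl1, Mmp2, Mmp9, Mmp17 and Mmp19.

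Members were on the whole higher in Scd2f/f TAL than in control liver and lower in Scd2f/f;CC TAL than in Scd2f/f TAL. A gene was counted when its mean over the 3 groups was at least 1 and its ratio was at least 2-fold, which is a description of size and not a test. The filter was passed by 23 of 47 members, 21 of them with every group mean at 1 or more. Mmp12 and Adam19 passed although control liver was under 1, so their means had to differ. Between Scd2f/f TAL and control liver, 7 of the 23 were at least 2-fold higher (30.4%) where 6.4% of all 11784 genes past the filter were, and none was 2-fold lower, against 2.89% of all genes. The 7 were Mmp12, Mmp2, Adam11, Adam19, Adamts1, Adamts2 and Adamts9. Between Scd2f/f;CC and Scd2f/f TAL, 3 of the 23 were at least 2-fold lower (13%), Mmp12, Mmp2 and Adamtsl2, where 1.54% of all genes were. None was 2-fold higher, against 0.645% of all genes. A ratio under 1 was seen for 20 of the 23 (87%) in that comparison, against 48.4% of all genes, and for 3 of the 23 (13%) in Scd2f/f TAL against control liver, beside 46.7% of all genes.

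The same counts over all 47 members, with no filter, pointed the same way. In Scd2f/f TAL against control liver, 15 of 47 were at least 2-fold higher (31.9%, against 9.37% of all genes) and none was 2-fold lower (against 4.69%). In Scd2f/f;CC against Scd2f/f TAL, 11 of 47 were at least 2-fold lower (23.4%, against 4.07% of all genes) and none was 2-fold higher (against 1.82%). A ratio under 1 was seen for 40 of 47 in that comparison (85.1%, against 49.6% of all genes), and for 9 of 47 in Scd2f/f TAL against control liver (19.1%, against 45.8%). The median log2 ratio of the 23 members past the filter was 0.42 for Scd2f/f TAL over control liver, beside 0.03 for all genes, and -0.31 for Scd2f/f;CC over Scd2f/f TAL, beside 0.01 for all genes. Both comparisons use the same Scd2f/f TAL means, so a high value there raises the first ratio and lowers the second, and the comparisons are not independent of each other. Set directly against control liver, the Scd2f/f;CC TAL mean was lower for 20 of the 47 members, and 25 had both TAL means above control liver. The shares of all genes for these 2 counts were not computed, so neither count sets the members apart from other genes.

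**Figure D1:**
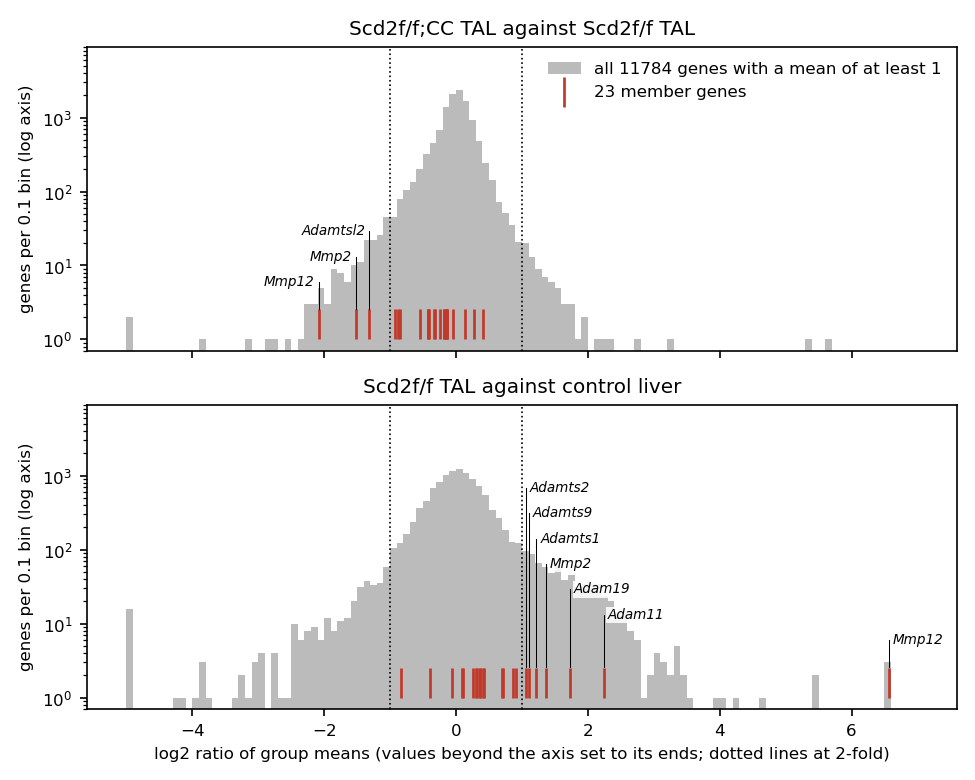
Log2 ratios of the authors' group means for all 11784 genes with a mean of at least 1 over the 3 groups (grey, genes per bin of 0.1 on a log axis) and for the 23 members among them (red ticks), for Scd2f/f;CC against Scd2f/f TAL above and Scd2f/f TAL against control liver below. Members past 2-fold (dotted lines) are named: 3 on the lower side above, and 7 on the higher side below, with Mmp12 farthest at 6.57.

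Among the collagenases, which open the triple helix of fibrillar collagen, only Mmp13 was measured here, and Mmp1a, Mmp1b and Mmp8 were not analysed. Mmp13 (chr9:7272514-7283332) had a mean of 0.0944 in control liver, of 1.84 in Scd2f/f TAL and of 0.402 in the Scd2f/f;CC group. Control liver was near the floor, Scd2f/f TAL was 19.5-fold above it, and Scd2f/f;CC TAL lay between them at 0.218 of the Scd2f/f level. Its mean over the groups was under 1, so it did not enter the filtered counts.

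The gelatinases, which degrade unwound collagen and the type IV collagen of basement membranes, differed from each other. Mmp2 (gelatinase A; chr8:92827291-92853421, plus strand) had means of 1.19, 3.06 and 1.07 in control liver, Scd2f/f TAL and Scd2f/f;CC TAL. The Scd2f/f;CC level was thus 0.350 of that in Scd2f/f TAL, a log2 ratio of -1.52, and slightly under that of control liver. Mmp9 (gelatinase B), which neutrophils and macrophages carry, had means of 0.157, 0.726 and 0.756 in the same order. Both TAL groups were above control liver by 4.62-fold and 4.82-fold, and the ratio between them was 1.04. The unequal ratios of Mmp2 and Mmp9 between the TAL groups rest on means without replicate error, and the difference was not tested.

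Macrophage elastase, Mmp12, which cuts elastin and is made by macrophages, had the largest ratio of any member. Its mean was 0.157 in control liver, 14.9 in Scd2f/f TAL and 3.52 for Scd2f/f;CC TAL (chr9:7344381-7369500). This was 94.9-fold above control liver in Scd2f/f TAL and 22.4-fold above it in Scd2f/f;CC TAL, with the latter at 0.236 of the former (log2 ratio -2.08). The control mean was close to the floor of the table, so the fold above it depends on few reads. Mmp12 shares 2.17% of its exonic bases with Mmp1b on the other strand, and since the library kit does not mark strand, reads from such stretches cannot be told apart.

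Matrilysin, Mmp7, an epithelial MMP without the hemopexin domain, followed another pattern within the same cluster. Its mean was 0.405 in control liver and 0.455 in Scd2f/f TAL but 0.0484 in Scd2f/f;CC TAL (chr9:7692090-7699586), so that the 2 groups without Cre were alike and the Scd2f/f;CC mean lay near the floor, at 0.106 of Scd2f/f TAL. The antisense gene AV064505 overlaps 11.5% of its exonic bases. Of the stromelysins, Mmp3 and Mmp10 were not analysed here, and Mmp11 had means of 0.293, 0.436 and 0.366. Mmp27 (chr9:7571396-7581886) had 0.267, 1.31 and 0.828, and both TAL groups were above control liver, by 4.91-fold and 3.10-fold. The 4 genes of the cluster therefore shared their highest mean in Scd2f/f TAL and did not share their level relative to control liver. How many of all genes had their highest mean in that group was not computed. Tmem123, next to them, had means of 15.8, 21.2 and 20.3.

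The membrane-type MMPs, which act at the cell surface, included the more abundant members. Mmp14, which activates the Mmp2 precursor together with Timp2, had means of 9.85, 12.7 and 11.2 in control liver, Scd2f/f TAL and Scd2f/f;CC TAL. Mmp15 had 35.6, 19.9 and 17.9, and both TAL means were lower than in control liver, at 0.559 and 0.503 of it. Mmp17 (0.246, 0.420 and 0.234) and Mmp24 (0.193, 0.216 and 0.0986) were low throughout. Neither Mmp14 nor Mmp15, the 2 past the filter, was 2-fold different between the TAL groups, and Mmp24, under the filter, stood at 0.456. Of the other MMPs, Mmp19, the most abundant MMP per length of transcript, had means of 30.4, 40.3 and 44.3, and it was the only MMP past the filter whose mean was higher in Scd2f/f;CC than in Scd2f/f TAL (1.10-fold). Tmem198b, on the other strand, covers 22.3% of the exonic bases of Mmp19. Mmp23 had 0.416, 0.497 and 0.234.

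**Figure D2:**
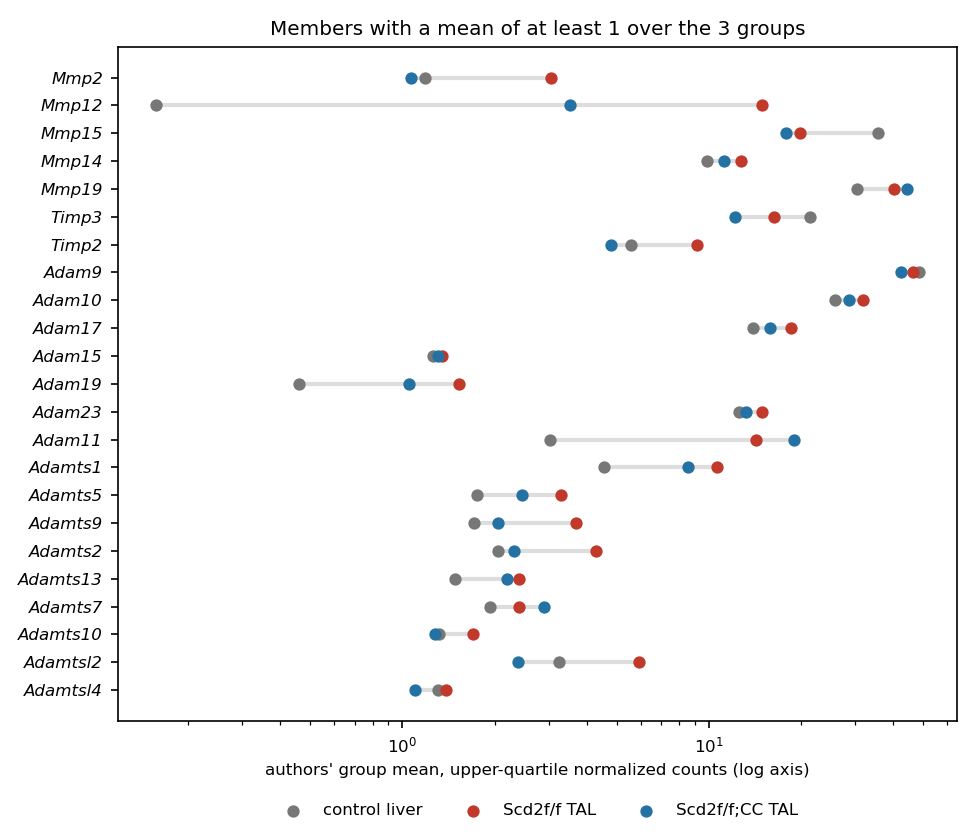
The authors' group means of the 23 members with a mean of at least 1 over the 3 groups, in upper-quartile normalized counts on a log axis, with 1 point for control liver (grey), Scd2f/f TAL (red) and Scd2f/f;CC TAL (blue) and a bar over their range. Most red points lie at the high end of the bar, and Mmp12 spans the widest range, from 0.157 to 14.9.

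The TIMPs were lower in Scd2f/f;CC than in Scd2f/f TAL for all 3 that were measured, without a common size, and Timp4 was not analysed. So were 85.1% of the 47 members and 49.6% of all genes without the filter. Timp1 (chrX:20870166-20874736, plus strand), the secreted inhibitor best known from fibrosis, had a mean of 0.0974 in control liver, 0.645 in Scd2f/f TAL and 0.0484 for Scd2f/f;CC TAL. It was 6.62-fold above control liver in Scd2f/f TAL and at 0.0750 of that level in Scd2f/f;CC TAL, the lowest such ratio of the 47 members, with the other 2 means close to the floor. Timp2, which inhibits MMPs and also helps Mmp14 to activate Mmp2, had means of 5.59, 9.16 and 4.81, a log2 ratio of -0.93 between the TAL groups that just missed the 2-fold limit. Timp3, which binds to the matrix and also inhibits Adam17 and the ADAMTS enzymes, had 21.4, 16.3 and 12.2, and so was highest in control liver. Syn3 on the other strand covers 21.3% of the exonic bases of Timp3. Summed over the 3 inhibitors, per kilobase of transcript, the level was 6.15 in control liver, 6.65 in Scd2f/f TAL and 3.94 for Scd2f/f;CC TAL.

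**Figure D3:**
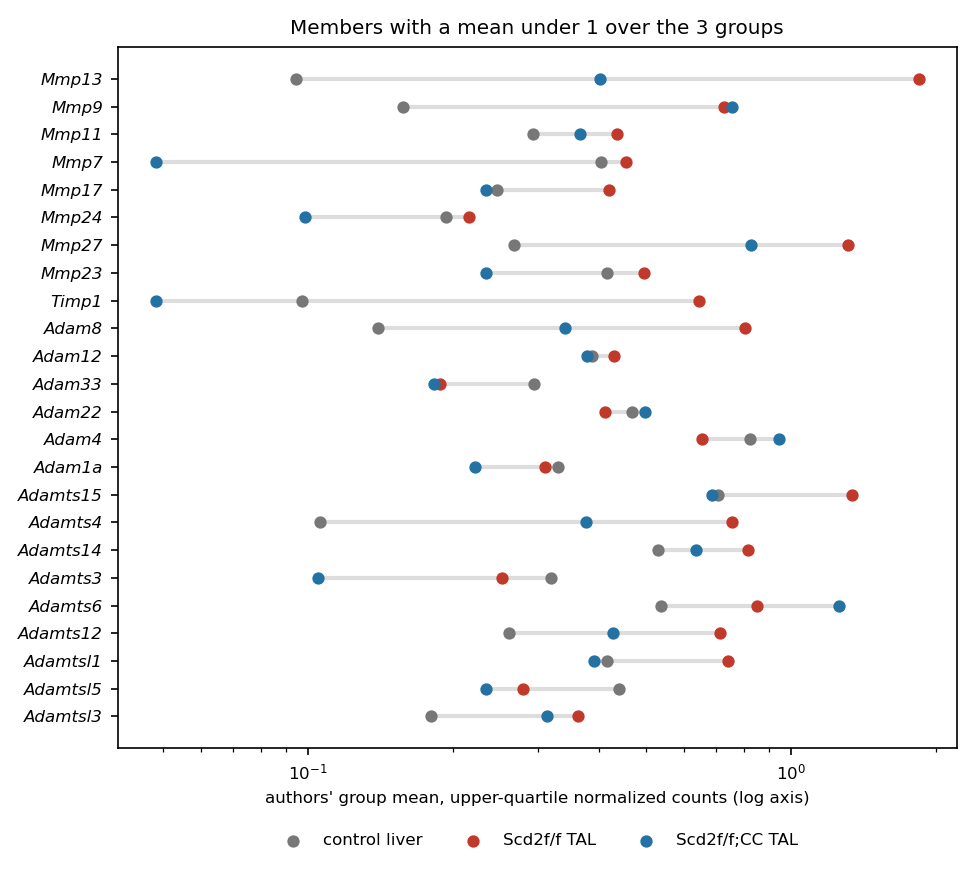
The authors' group means of the 24 members with a mean under 1 over the 3 groups, in upper-quartile normalized counts on a log axis, with colors as for the more abundant members. Mmp13, Mmp7 and Timp1 have the widest gaps between the Scd2f/f (red) and Scd2f/f;CC (blue) points, and the Scd2f/f;CC means of Mmp7 and Timp1, both 0.0484, lie near the lowest listed mean of 0.0349.

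The ADAM proteases that are widely expressed differed little between groups. Adam10, which releases the Notch receptors, had means of 25.8, 31.9 and 28.7 in control liver, Scd2f/f TAL and Scd2f/f;CC TAL. Adam17, which releases tumor necrosis factor and ligands of the EGF receptor, had 13.9, 18.6 and 15.8. Adam9 had 48.4, 46.4 and 42.3, and had the highest mean over the groups of all members, also per length of transcript. These 3 sheddases were within 1.34-fold of control liver in Scd2f/f TAL and at 0.849 to 0.912 of Scd2f/f TAL in Scd2f/f;CC TAL. Adam15 had 1.26, 1.35 and 1.31, with 20.6% of its exonic bases shared with an antisense gene.

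The ADAM proteases of leukocytes and mesenchyme had lower means. Without the filter, 2 of the 4, Adam8 and Adam19, were past 2-fold over control liver in Scd2f/f TAL, against 9.37% of all genes. Of these 2, only Adam19 passed the filter. Adam8, found on neutrophils and macrophages, had means of 0.140, 0.804 and 0.340, and was 5.74-fold higher in Scd2f/f TAL than in control liver and at 0.423 of that in Scd2f/f;CC TAL. Adam19 had 0.462, 1.53 and 1.05, which was 3.31-fold above control liver in Scd2f/f TAL, with 8.25% of its exonic bases shared with an antisense gene. Adam12 (0.388, 0.430 and 0.379) and Adam33 (0.294, 0.188 and 0.182) were low in all groups, and their TAL means were within 1.13-fold of each other. Of the many ADAMs of the reproductive tract, Adam4 and Adam1a were the only ones among the members, both under 1 in every group. Adam1a shares 63.7% of its exonic bases with Gm42878 and 24% with Mapkapk5, both on the same strand.

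Adam11, a member without a working catalytic site that is best known from neurons, had the second highest ratio to control liver among members past the filter. Its means were 3.03 in control liver, 14.3 in Scd2f/f TAL and 19.0 for Scd2f/f;CC TAL (chr11:102761439-102780263, plus strand), 4.72-fold and 6.27-fold above control liver. Unlike Mmp12 and Mmp2 it had its highest mean in Scd2f/f;CC TAL, 1.33-fold above Scd2f/f TAL. Its relatives Adam23 (12.5, 14.9 and 13.2) and Adam22 (0.469, 0.412 and 0.499) had TAL means within 1.21-fold of each other.

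Of the ADAMTS enzymes that cut the proteoglycans versican and aggrecan, 5 were measured, and all 5 had their highest mean in Scd2f/f TAL. The share of all genes that did so was not computed, so this count does not set the 5 apart. Adamts1 had means of 4.55, 10.6 and 8.53, Adamts9 had 1.71, 3.69 and 2.05, and both were past 2-fold over control liver in Scd2f/f TAL. This was 2 of 3 past the filter, where 6.4% of all genes were, and 3 of 5 without it, against 9.37%. Adamts4 (0.106, 0.756 and 0.376), Adamts5 (1.75, 3.29 and 2.46) and Adamts15 (0.705, 1.34 and 0.686) made up the rest. Adamts1 and Adamts5 are neighbours on chromosome 16, 55.1 kb apart. In Scd2f/f;CC TAL the 5 stood at 0.497 to 0.805 of their level in Scd2f/f TAL, with Adamts1 the nearest to it and Adamts4, under the filter, the farthest. Adamts9 shares 9.18% of its exonic bases with a gene on the other strand, and Adamts4 3.56%.

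The procollagen N-proteinases, which trim the amino end of fibrillar procollagens, were led by Adamts2, with means of 2.05, 4.29 and 2.32. It was 2.09-fold higher in Scd2f/f TAL than in control liver and at 0.541 of that in Scd2f/f;CC TAL. Adamts14 had 0.530, 0.816 and 0.636, and Adamts3 had 0.319, 0.252 and 0.105. Adamts13, the protease of von Willebrand factor, which HSC make in liver, had 1.49, 2.41 and 2.19, a ratio of 0.909 between the TAL groups. Adamts7 (1.93, 2.41 and 2.90) and Adamts6 (0.539, 0.850 and 1.26) went the other way from most members, with the highest mean in Scd2f/f;CC TAL. Adamts10 had 1.32, 1.70 and 1.28, and Adamts12 had 0.261, 0.713 and 0.428.

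ADAMTS-like proteins have the ancillary domains of ADAMTS enzymes without the protease, and several bind fibrillin microfibrils. All 5 had a lower mean in Scd2f/f;CC than in Scd2f/f TAL, with ratios of 0.401 to 0.865. A ratio under 1 was also seen for 85.1% of the 47 members and 49.6% of all genes, so it is not particular to them. Adamtsl2 was the one past 2-fold, with means of 3.25 in control liver, 5.93 in Scd2f/f TAL and 2.38 for Scd2f/f;CC TAL, the last being below control liver. It lies on chromosome 2, 69.8 kb from Adamts13, whose ratio between the TAL groups was 0.909. Adamtsl1 had 0.417, 0.740 and 0.392, Adamtsl4 had 1.31, 1.39 and 1.10, Adamtsl3 had 0.180, 0.362 and 0.313, and Adamtsl5 had 0.441, 0.279 and 0.234.

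Levels can be compared between genes only per length, so each mean was divided by the length in kilobases of the longest GENCODE M21 transcript. On that scale Adam9 (11.3 over the 3 groups) and Mmp19 (11.3) led, followed by Adam10 (6.27), Mmp15 (4.77), Adam17 (3.60), Timp3 (3.52) and Mmp14 (3.47). In Scd2f/f TAL, Mmp12 at 3.33 per kilobase stood close to Timp3 at 3.45 and Mmp14 at 3.92, whereas in control liver it was at 0.035 beside 4.53 and 3.04. Timp1 was at 0.730 per kilobase in Scd2f/f TAL, below Timp2 at 2.47 and above Mmp13 at 0.688. Adam9 and Mmp19 lay above 85.7% of the protein-coding genes of the table that have a length, and Mmp24, the lowest of the members, above 1.71%.

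Other genes of the pathway were read from lists of the plasminogen system, further inhibitors, activation and trafficking, and other matrix proteases. In the plasminogen system, which activates several MMPs, Plau, the urokinase activator, had means of 0.626, 2.05 and 1.20. It was at least 2-fold above control liver in Scd2f/f TAL, where 6.4% of all genes past the filter were. Its control mean was under 1, so a rise over control liver was built into its choice. Plasminogen itself, Plg, had 962, 1120 and 1270. Under the filter, Plat (0.609, 1.20 and 0.277) and Plaur (0.560, 0.938 and 0.332) were past 2-fold lower in Scd2f/f;CC than in Scd2f/f TAL. They were 2 of the 7 genes found, against 4.07% of all genes without the filter, and 3 of the 7 had a ratio above 1.

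Among the further inhibitors, 1 of 3 past the filter was 2-fold lower in Scd2f/f;CC than in Scd2f/f TAL, where 1.54% of all genes were. This was Reck, a membrane-anchored inhibitor of MMPs, with means of 1.64, 2.03 and 0.974. Lrp1, the receptor that clears protease and inhibitor complexes, had 568, 896 and 989. Of 9 genes past the filter for activation and trafficking, 2 were past 2-fold over control liver in Scd2f/f TAL, where 6.4% of all genes were, Rhbdf2 (3.52, 7.61 and 5.11), which carries Adam17 to the surface, and Tspan15 (1.37, 2.97 and 2.96), a partner of Adam10. None of the 9 was 2-fold different between the TAL groups. Furin, which removes the propeptide of ADAMs and membrane-type MMPs, had 112, 106 and 108. Of 5 other matrix proteases and enhancers past the filter, Htra1 (0.883, 1.90 and 0.914) and the serine protease Prss23 (3.25, 3.19 and 1.55) were 2-fold lower in Scd2f/f;CC than in Scd2f/f TAL, where 1.54% of all genes were. Htra1 was also 2.15-fold above control liver in Scd2f/f TAL, the 1 group in which its mean was above 1. It passed the filter through that mean alone, so a lower mean in the other groups was built into its choice. Serpinb2, Spock1, Tll1 and Fap were not analysed here.

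Markers of cell types that are known to make these proteins also differed between the groups, and in whole tissue fewer cells of a type and less RNA per cell cannot be told apart. Of 17 markers of HSC and portal fibroblasts, all 17 had a lower mean in Scd2f/f;CC than in Scd2f/f TAL, against 49.6% of all genes without the filter. Past the filter, 5 of 15 were at least 2-fold lower, where 1.54% of all genes were. Col1a1, whose promoter drives the Cre, had means of 4.69, 19.6 and 4.51 and was lowest in ratio, at 0.230. The others past 2-fold were Col1a2, Col3a1, Lum and Pdgfrb. Against control liver, 4 of the 15 were at least 2-fold higher in Scd2f/f TAL, where 6.4% of all genes were. These were Col1a1, Col1a2, Col3a1 and Ngfr. Ratios between the TAL groups ran up to 0.842 for Lrat, with means of 15.0, 19.0 and 16.0, and the median over the list was 0.568. The summed means of the list were 245, 405 and 241.

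All 14 macrophage markers were at least 2-fold higher in Scd2f/f TAL than in control liver. Of all genes, 9.37% were so without the filter and 6.4% past it. The summed means of the 14 markers were 86.3, 328 and 249. The 13 past the filter were Adgre1, Cd68, Csf1r, Itgax, Lyz2, Ccr2, Cx3cr1, Clec4f, Timd4, Vsig4, Marco, Gpnmb and Cd14. Of these, Itgax, Ccr2, Cx3cr1, Marco, Gpnmb and Cd14 had control means under 1, so a rise over control liver was built into their choice. Between the TAL groups 4 of 13 were at least 2-fold lower in Scd2f/f;CC, where 1.54% of all genes were, led by Gpnmb, with means of 0.0937, 8.98 and 0.638, and Cx3cr1, Itgax and Cd14 made up the rest. Gpnmb and Cx3cr1 (0.256, 2.54 and 0.482) passed the filter through the Scd2f/f TAL mean alone, so a lower mean in the other groups was built into their choice. Among markers of resident macrophages, Clec4f (27.3, 71.2 and 71.7) and Timd4 (1.70, 4.81 and 5.94) had ratios above 1 between the TAL groups, and Vsig4 (4.90, 17.2 and 14.1) and Marco (0.870, 14.6 and 10.7) had ratios of 0.820 and 0.733. Gpnmb was near the floor in control liver, Itgax, Cx3cr1 and Trem2 were low there, and each was highest in Scd2f/f TAL. Adgre1 (5.70, 19.0 and 17.7) was clearly present in control liver and nearly level between the TAL groups. Neutrophil markers summed to 1.26, 4.93 and 3.82 over the 6 that were found. S100a9 and Csf3r were past the filter and 2-fold above control liver in Scd2f/f TAL, where 6.4% of all genes were. Their control means were 0.355 and 0.477, so both passed through the TAL groups and a rise over control liver was built into their choice. Ltf and Ngp were close to the floor in every group, and Ly6g, Mpo, Elane, Camp and Retnlg were not analysed.

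Cholangiocyte markers were lower in Scd2f/f;CC TAL for all 6 that were found, 5 of them at least 2-fold (1 past the filter, Epcam), with a median log2 ratio of -1.87 and summed means of 6.99, 9.88 and 4.79. Without the filter, 4.07% of all genes were at least 2-fold lower and 49.6% had a ratio under 1. Epcam had means of 1.97, 1.82 and 0.500 and Krt19 of 0.746, 0.751 and 0.204, while over the 6 markers Scd2f/f TAL stood, relative to control liver, at ratios from 0.669 for Krt7 to 3.59 for Muc1. The medians of the log2 ratios were -0.06 for 8 endothelial markers, -0.22 for 9 markers of T, NK and B cells, which were all under the filter, and 0.19 for 8 hepatocyte markers. Of the 8 endothelial markers, Cdh5 and Lyve1 were 2-fold above control liver in Scd2f/f TAL, where 6.4% of all genes past the filter were. Whether the share of any of these cell types accounts for the ratios of the members was not tested.

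**Figure D4:**
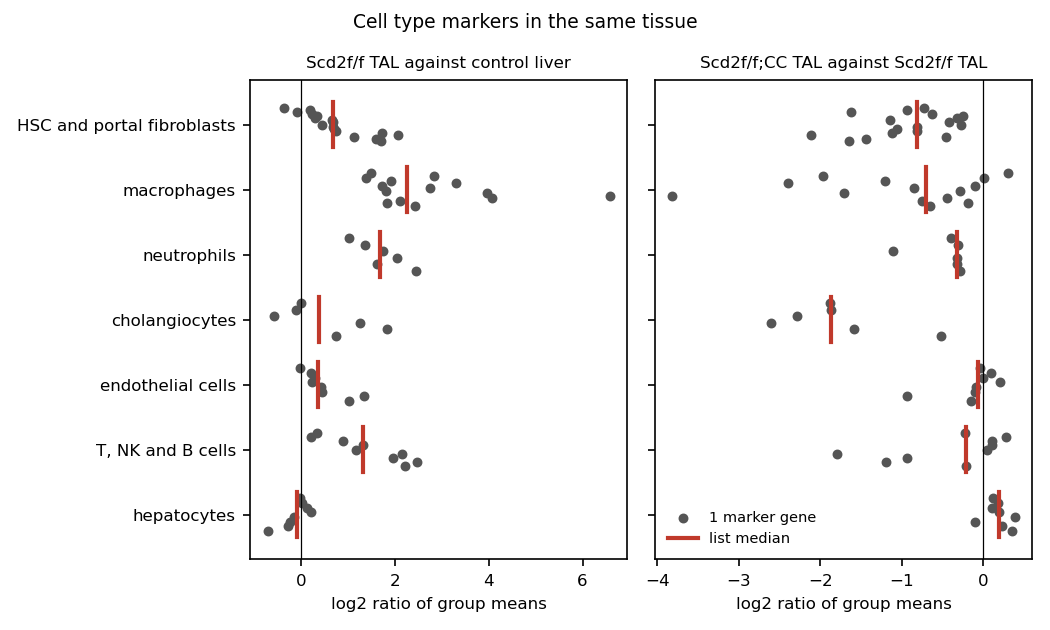
Log2 ratios of the authors' group means for the markers of 7 cell types (1 point per gene, red line at the list median), for Scd2f/f TAL against control liver on the left and Scd2f/f;CC against Scd2f/f TAL on the right. Macrophage markers have a median of 2.27 on the left, and cholangiocyte markers of -1.87, HSC and portal fibroblast markers of -0.82 and macrophage markers of -0.70 on the right.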

How the data were processed

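The authors extracted RNA with the PicoPure kit, prepared libraries from polyadenylated RNA with the TruSeq v2 kit and sequenced them on a NextSeq. Processing notes of the submitters name mm10, STAR 2.6.1 and Partek 6. The authors quantified reads to genes of Gencode M3 with the Partek E/M method, scaled the counts to their upper quartile and ran Partek Gene Specific Analysis. The signal analysed here is the deposited least-squares mean of normalized counts, 1 per group over 3 mice, not scaled by gene length. The deposited p-values, false discovery rates, ratios and fold changes of the authors' comparisons were not used.

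Ratios were computed from the deposited means. A gene was counted at a ratio of at least 2-fold where the mean over the 3 groups was at least 1, a description without a test. The mean per kilobase used the longest transcript of GENCODE M21 on GRCm38, in which 16171 gene symbols were found, 16167 of them overlapping the gene of that name on the same strand. The upper quartile normalization sets a common scale for all genes of a library, and reads shared by near-identical or overlapping genes were split by the E/M method, which can move low genes. Named genes were members past 2-fold with a mean of at least 1, the Timp genes, the 8 members with the highest means and members with a mean under 1 past 4-fold. The other members are given as well, so that all 47 are shown. Of the pathway and marker lists, genes past 2-fold with a mean of at least 1 were named, and Plg, Lrp1, Furin, Plat, Plaur, Lrat, Krt7, Krt19, Muc1, Ltf, Ngp, Alb and Tmem123 were added after their values were seen. Of the pathway lists, 1 gene is not reported here. Members and gene lists were chosen with earlier results of these data known.

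Alternatives were no filter, a filter of 5, fold limits of 1.5 and 3, pseudocounts of 0.1 and 1, centring on the median of all genes, and length over all exonic bases. A search for the catalytic motif in member proteins had been planned, and protein sequences were not used here. Scripts were tested on simulated data. Python 3.11.15, NumPy 2.4.6, pandas 2.3.3 and Matplotlib 3.10.9 were used.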

Additional observations from a re-analysis of the deposited data

How the results depend on the processing

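A filter, a fold limit, a pseudocount or a change of length cannot turn the direction of a ratio, so only centring could do so. Centring moved the log2 ratios by only 0.006 between the TAL groups and 0.028 against control liver. It turned the direction of no named member. In Scd2f/f;CC against Scd2f/f TAL, the 3 members counted as lower became 11 without the filter, 1 with a filter of 5, 6 with a fold limit of 1.5 and 1 with a fold limit of 3, and the median log2 ratio of -0.31 became -0.18 with a filter of 5. In Scd2f/f TAL against control liver, the 7 members counted as higher became 15 without the filter, 3 with a filter of 5, 11 with a fold limit of 1.5, 3 with a fold limit of 3 and 3 with a pseudocount of 1, and 1 member, Mmp15, was lower with a fold limit of 1.5. With a pseudocount of 1, Adam8, Adamts4, Mmp2, Mmp7 and Timp1 lost their 2-fold ratio between the TAL groups. Adam8, Adam19, Adamts2, Adamts4, Adamts9, Mmp2, Mmp9, Mmp27 and Timp1 lost theirs to control liver. These are low genes, for which a pseudocount shrinks the ratio by construction, and with 0.1 only Adamts4 lost its 2-fold ratio. Centring moved no named member across 2-fold. Length over all exonic bases moved 14 of 47 levels per kilobase by more than 1.5 times. No paired analysis was possible because only group means were used, and for that reason no mouse could be left out in turn. The depth of the libraries and the error of every ratio are unknown.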
